A study of Mus musculus with 9 samples.

Results

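A list of 10 symbols defines the neutrophil granule and receptor genes described here, and 9 of them were analysed: S100a8, S100a9, Ngp, Camp, Ltf, Lcn2, Retnlg, Cxcr2 and Padi4. The rule takes the genes by symbol, and the list of symbols was drawn up with earlier results of these data known. They are 9 of the 14940 rows of the deposited table, and all 9 are among the 13018 genes that passed a filter on low values. Chil3, a chitinase-like gene of neutrophils and macrophages, was not analysed here. Cxcr2 passed the filter through the immunized groups alone, since it was below 10 in all 3 naive libraries. RNA came from LSK cells, the bone marrow fraction without lineage markers and with Sca1 and cKit on its surface, which holds stem cells and early progenitors. All mice were C57BL/6, with 3 mice and 3 libraries in each group. The naive group was taken at day 0. The EAE group had been immunized 3 days earlier with complete Freund's adjuvant and residues 35 to 55 of myelin oligodendrocyte glycoprotein, a protocol that induces experimental autoimmune encephalomyelitis (EAE), a model of multiple sclerosis. The treated group was immunized in the same way and received SR59230A, an antagonist of the β3-adrenergic receptor, for 3 days. The labels name neither a group with adjuvant only nor a vehicle for the antagonist, so these parts of each treatment cannot be told apart.

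Neutrophils make their granules in sequence as they mature in the marrow. Proteases of the azurophil granules appear first, in promyelocytes, then the proteins of the specific granules, and last the gelatinase granules and the surface receptors with which the mature cell leaves the marrow. S100a8 and S100a9 form calprotectin, a calcium- and zinc-binding complex that fills the neutrophil cytosol. Ngp and Camp belong to the cathelicidin family, Ltf encodes the iron-binding protein lactoferrin and Lcn2 the siderophore-binding protein lipocalin 2. The specific granule genes are known to be switched on at the myelocyte stage by the transcription factor C/EBPε, which is past the stages that an LSK sort is meant to hold.

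The promoters of 5 genes are shown as examples. Of these, 4 (S100a8, Ngp, Ltf and Lcn2) are among the 7 genes with the same order of mice in all 3 groups. Cxcr2 had another order in the EAE group. S100a9, Camp and Retnlg also had the shared order on scaled values and are not shown. Each stretch is the 250 bases before the RefSeq transcription start (build GRCm38.p6), read 5′ to 3′ along the gene. Capitals mark matches to TTGCNNAA, a C/EBP-type motif, or to GAGGAA, a PU.1-type motif, on either strand (TTNNGCAA or TTCCTC when read on the other strand).
S100a8, chr3:90668821-90669070, plus strand: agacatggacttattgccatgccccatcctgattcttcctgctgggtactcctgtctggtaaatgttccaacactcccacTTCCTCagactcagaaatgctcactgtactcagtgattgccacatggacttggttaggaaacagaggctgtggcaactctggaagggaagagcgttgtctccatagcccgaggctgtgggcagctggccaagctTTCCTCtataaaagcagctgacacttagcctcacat
Ngp, chr9:110419558-110419807, plus strand: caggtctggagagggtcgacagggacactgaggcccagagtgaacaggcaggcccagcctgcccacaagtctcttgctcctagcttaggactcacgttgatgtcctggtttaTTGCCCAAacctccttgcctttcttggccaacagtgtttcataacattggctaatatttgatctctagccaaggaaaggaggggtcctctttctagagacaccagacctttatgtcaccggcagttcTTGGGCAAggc
Ltf, chr9:111019042-111019291, plus strand: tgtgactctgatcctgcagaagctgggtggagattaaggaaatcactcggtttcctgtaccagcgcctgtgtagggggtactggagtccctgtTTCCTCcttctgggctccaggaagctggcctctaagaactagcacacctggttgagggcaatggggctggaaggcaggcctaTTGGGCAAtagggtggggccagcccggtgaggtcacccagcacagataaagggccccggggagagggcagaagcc
Lcn2, chr2:32387740-32387989, minus strand: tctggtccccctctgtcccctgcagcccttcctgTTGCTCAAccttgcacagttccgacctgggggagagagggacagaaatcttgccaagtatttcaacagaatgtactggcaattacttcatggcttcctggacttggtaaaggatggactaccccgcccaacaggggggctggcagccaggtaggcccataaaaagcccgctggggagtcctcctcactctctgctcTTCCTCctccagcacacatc
Cxcr2, chr1:74153744-74153993, plus strand: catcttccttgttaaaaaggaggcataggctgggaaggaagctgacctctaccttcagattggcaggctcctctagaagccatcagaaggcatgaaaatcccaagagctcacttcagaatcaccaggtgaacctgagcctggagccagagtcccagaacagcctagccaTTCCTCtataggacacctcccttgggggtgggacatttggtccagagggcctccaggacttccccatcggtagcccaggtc
The search covered windows of 300 bases, from 250 before to 50 after the start, and all 10 genes had 1 window each. The C/EBP-type motif was found in the windows of 5 genes, S100a9, Ngp, Ltf, Lcn2 and Retnlg, and in 10.8% of all 32851 windows in the RefSeq table. Ngp held 2 such matches, beginning 138 and 11 bases before the start. The PU.1-type motif was found in 4 windows, those of S100a8, Ltf, Lcn2 and Cxcr2, against 28.3% of all windows. Neither motif was present in the windows of Camp, Padi4 and Chil3. These are matches of letters, not measured binding. In the same assembly S100a8 and S100a9 are neighbouring genes on chromosome 3, Camp, Ngp and Ltf lie on chromosome 9, and the next coding gene after Cxcr2 on chromosome 1 is Cxcr1.

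The table's whole numbers had been adjusted before deposit and are no longer read counts, as their structure shows. The depth behind a value is therefore unknown, and counting intervals are not given. Library sums lay between 8641735 and 10387955 and were brought to a common scale, on which all values below are given. Values compare libraries for 1 gene and do not compare genes, because they are not corrected for length. The values lack 2 directions of variation that lay almost wholly within the groups (99.4% and 99.8%), so SDs may understate the spread between mice. All 8 gate and stem-cell genes fixed for the check of the sort (such as Kit, Ly6a and Cd34) were present, with summed values of 25871 to 26875 in naive, 19883 to 20346 in EAE and 20352 to 21208 in treated libraries. The genes in this sum went different ways. In EAE against naive mice 5 fell by limma-trend, with log2 fold changes of -1.48 (Hlf), -0.87 (Mecom), -0.46 (Procr), -0.44 (Flt3) and -0.43 (Kit). Ly6a rose by 0.46, and Cd34 and Slamf1 did not pass. Over all tested genes 5.1% fell and 9.13% rose. EAE replicate 2 was the lowest of its group for 7 of the 9 genes described here, and results that rest on it are given with and without it. It was picked out from these same values. Leaving out the lowest library raises a group's mean, so values without it are no separate evidence for genes in which it was lowest.

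The calprotectin genes varied more between mice of a group than almost all other genes. S100a8 stood at 642, 482 and 1306 in naive replicates 1, 2 and 3, at 2759, 729 and 3682 in the EAE libraries and at 1626, 3238 and 3737 in the treated libraries. The EAE mice of replicates 1 and 3 were above every naive mouse, and replicate 2 lay among them. Every treated mouse was above every naive mouse. S100a9 gave the same picture, at 1003, 756 and 1935 in naive, 3578, 998 and 4717 in EAE and 2312, 4301 and 4786 in treated libraries. Within the EAE group the highest S100a8 value was 5.05 times the lowest, a log2 range of 2.34 that exceeded those of 99.3% of all tested genes. In spite of this the ratio of S100a8 to S100a9 moved by no more than 1.22-fold over all 9 libraries, while the single genes spanned 7.75-fold and 6.33-fold. LSK cells were measured in bulk, so fewer cells that carry such a transcript and less of it per cell cannot be told apart.

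On the common scale the specific granule genes had the same order of mice within each group as the calprotectin genes. For Camp this order did not hold before scaling in the EAE and treated groups. Ngp, which encodes neutrophilic granule protein, was 935, 645 and 1774 in naive, 3057, 811 and 4686 in EAE and 2090, 4035 and 4784 in treated libraries. Camp, the gene of the antimicrobial peptide CRAMP, was 122, 107 and 271 in naive, 389, 81.9 and 418 in EAE and 210, 490.2 and 496 in treated libraries. Ltf was 194, 163 and 349 in naive, 647, 147 and 1154 in EAE and 464, 888 and 1013 in treated libraries. For Camp and Ltf EAE replicate 2 was the lowest of all 9 libraries, below every naive mouse. Ltf had the widest range within the EAE group, 7.83-fold. The ratio of Ngp to S100a9 stayed within 1.23-fold over the 9 libraries and that of Ltf to Ngp within 1.39-fold. The ratio of Camp to Ngp spanned 1.86-fold, with a log2 value of -2.94, -2.59 and -2.71 in naive, -2.97, -3.31 and -3.49 in EAE and -3.32, -3.04 and -3.27 in treated libraries. Every immunized library was below every naive library in that ratio.

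Lcn2, whose product withholds iron from bacteria and which inflammatory signals are known to induce in many cell types, shared this order but set EAE apart from naive. Its values were 135, 97.6 and 227 in naive, 656, 266 and 1044 in EAE and 483, 786 and 1017 in treated libraries. EAE replicate 2 was again the lowest of its group, yet above all naive libraries, so the groups did not overlap. Retnlg, a resistin-like gene of neutrophils, was 249, 108 and 375 in naive, 356, 226 and 478 in EAE and 188, 365 and 593 in treated libraries. The 3 groups overlapped for Retnlg.

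Cxcr2 and Padi4 did not share this order of mice in the EAE group, and Padi4 did not share it in the naive group. Cxcr2, the receptor that draws neutrophils toward ELR chemokines and out of the marrow, was 8.11, 5.69 and 8.45 in naive, 44.2, 58.3 and 68.8 in EAE and 23.4, 23.4 and 38.9 in treated libraries. In EAE replicate 2, where the granule genes were low, Cxcr2 was between the other EAE libraries. Padi4, the enzyme gene behind the histone citrullination of neutrophil extracellular traps, was 886, 738 and 834 in naive, 566, 602 and 611 in EAE and 607, 609 and 641 in treated libraries. All immunized mice were below all naive mice, and its log2 range within the EAE group, 0.11, was smaller than those of most genes (median of all tested genes 0.31).

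**Figure D1:**
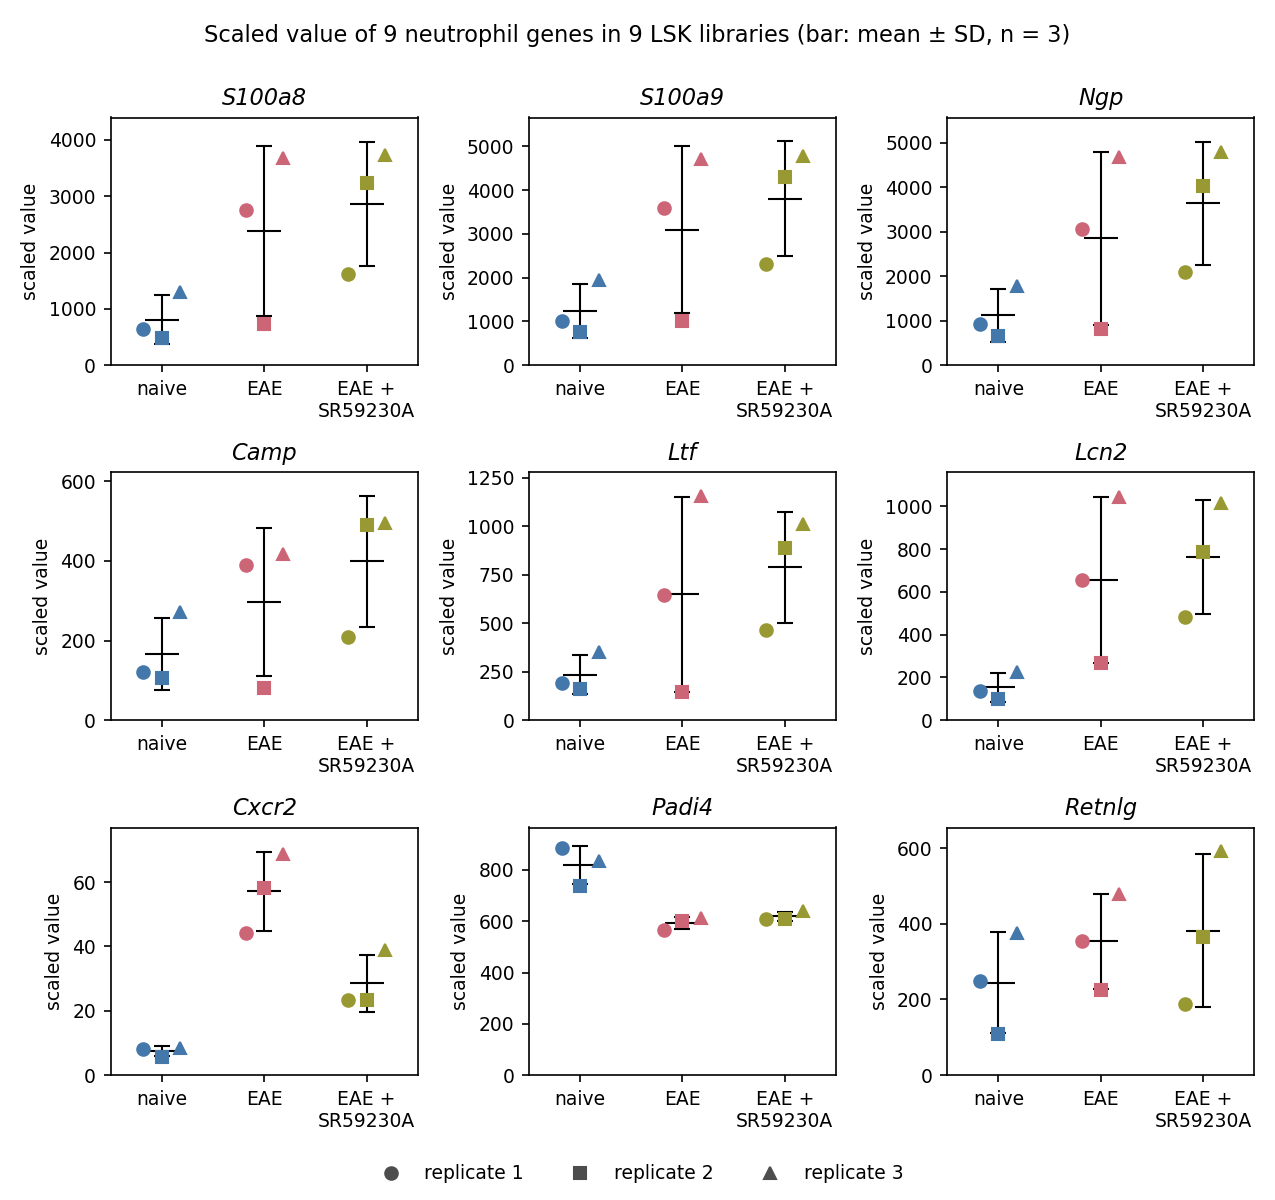
Scaled value (vertical axis, linear from 0) of each of the 9 genes in every library by group (horizontal axis), with marker shape for the replicate and a bar for the group mean ± SD (n = 3). EAE replicate 2 (square) lies low for the granule and calprotectin genes, such as 729 for S100a8, and in the middle of its group for Cxcr2, at 58.3.

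EAE against naive addresses the effect of immunization within 3 days. Of the 9 genes, 2 rose (Cxcr2 and Lcn2), 1 fell (Padi4) and 6 did not pass by limma-trend, where a gene passed with a p under 0.05 after Benjamini-Hochberg adjustment. Over all tested genes 9.13% rose and 5.1% fell, so that 64.2% of the calls were higher, against 57.2% with no scaling and 47% with upper-quartile scaling, and the same 3 of the 9 genes were called with each. The median log2 fold change of the 9 genes was 1.15, against -0.0032 over all tested genes, and 8 of the 9 were positive. Cxcr2 rose by 2.80 ± 0.35 on the log2 scale (SE, 3 against 3 libraries, limma-trend adjusted p = 0.000478), from 7.42 ± 1.51 to 57.1 ± 12.3 (SD), and was higher in 3 of 3 EAE libraries than in any naive library. Because Cxcr2 passed the filter through the immunized groups alone, its separation from naive is not independent of the filter. The scale is log2(value + 1), which understates the change of so low a gene: the ratio of means was 7.70. The log2 fold change of Cxcr2 depended on the pseudocount, at 1.95 with a pseudocount of 10 and 2.94 with one of 0.1. Lcn2 rose by 1.98 ± 0.45 (limma-trend adjusted p = 0.0137), from 153 ± 66.8 to 655 ± 389. Padi4 fell by 0.47 ± 0.10 (limma-trend adjusted p = 0.0115), from 819 ± 74.9 to 593 ± 23.6. These 3 genes were also those whose groups did not overlap, 2 higher and 1 lower, against 21% and 18.4% of all tested genes (39.4% in either direction).

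The call for Lcn2 was lost without naive replicate 2 (limma-trend adjusted p = 0.0554, with 0.0045 to 0.0554 among its alternatives), while those of Cxcr2 and Padi4 held in each alternative run. The 6 other genes had log2 fold changes of 1.40 ± 0.55 (S100a8), 1.18 ± 0.52 (S100a9), 1.15 ± 0.56 (Ngp), 1.11 ± 0.60 (Ltf), 0.64 ± 0.58 (Camp) and 0.64 ± 0.47 (Retnlg). The count moved most with EAE replicate 2, picked out because it was the lowest EAE library for most of these genes. Leaving it out had to raise their fold changes, so the calls without it are no separate support. Without it 7 of the 9 genes were called, with S100a8 at 2.12 ± 0.43, S100a9 at 1.86 ± 0.40, Ltf at 1.96 ± 0.41 and Ngp at 1.90 ± 0.44. Their limma-trend adjusted p without it was 0.0144, 0.0172, 0.0150 and 0.0234, and over all their alternatives it reached 0.282, 0.373, 0.601 and 0.480. Camp (1.41 ± 0.45) and Retnlg (0.93 ± 0.55) did not pass even then. S100a8 also passed without naive replicate 3, at 1.81 ± 0.54 (limma-trend adjusted p = 0.0429), where 4 of the 9 genes were called. Over all 13018 tested genes, 1159 rose and 711 fell without EAE replicate 2. Without naive replicate 3 these numbers were 1211 and 659, against 1189 and 664 with all libraries.

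SR59230A-treated EAE against EAE addresses what the antagonist changed in immunized mice. None of the 9 genes passed by limma-trend (0 of 9; 1 of 9 at an unadjusted p under 0.05), and 0.00768% of all tested genes did (1 of 13018; 504 at an unadjusted p under 0.05). Cxcr2 was the gene with an unadjusted p under 0.05: its mean was 28.6 ± 8.92 in treated against 57.1 ± 12.3 in EAE libraries, a log2 fold change of -1.0 ± 0.35 with limma-trend adjusted p = 0.998. All 3 treated libraries were below all 3 EAE libraries for Cxcr2, and no gene of the 9 had them all above. Of all tested genes 7.71% were separated downward and 8.46% upward (16.2% in all). The unadjusted 95% interval for Cxcr2 ran from -1.76 to -0.25. The granule and calprotectin genes had positive values with wide intervals, from 0.36 for Lcn2 (-0.63 to 1.34) to 0.64 for Camp (-0.63 to 1.91). Without EAE replicate 2 the values of S100a8, S100a9, Ngp, Camp, Ltf, Lcn2 and Retnlg were negative, between -0.27 and -0.13. It was the lowest EAE library for each of these genes, so leaving it out had to lower these values. Padi4 was measured more closely, at 0.06 ± 0.10, with an interval from -0.16 to 0.29.

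SR59230A-treated EAE against naive shares the naive libraries with the first comparison and is not independent of it. Of the 9 genes, 4 rose (Lcn2, S100a8, Cxcr2 and S100a9), 1 fell (Padi4) and 4 did not pass, against 10.2% and 4.61% of all tested genes that rose and fell. Lcn2 rose by 2.34 ± 0.45 (limma-trend adjusted p = 0.00623), to a mean of 762 ± 268. Cxcr2 rose by 1.79 ± 0.35 (limma-trend adjusted p = 0.00623), though with a pseudocount of 10 the value was 1.13. Here too it had passed the filter through the immunized groups alone. S100a8 rose by 1.87 ± 0.54 and S100a9 by 1.68 ± 0.51 (limma-trend adjusted p = 0.0403 and 0.0490). Padi4 fell by 0.40 ± 0.10 (limma-trend adjusted p = 0.0223). In this comparison 6 of the genes had all treated libraries above all naive libraries and 1 had them below, against 26.4% and 22.4% of all tested genes (48.8% in either direction). Ngp (1.75 ± 0.56), Ltf (1.75 ± 0.60), Camp (1.28 ± 0.58) and Retnlg (0.67 ± 0.47) did not pass.

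Calls near the threshold depended on single libraries and on the processing. S100a8 and S100a9 were lost with upper-quartile scaling (limma-trend adjusted p = 0.0509 and 0.0619), and S100a9 also with no scaling (0.0567) and with a pseudocount of 0.1 (0.0524). Both were lost without naive replicate 1, naive replicate 2, treated replicate 2 or treated replicate 3, with limma-trend adjusted p up to 0.119 and 0.140 and down to 0.00797 and 0.00885 over all alternatives. Padi4 was lost without naive replicate 1 (limma-trend adjusted p = 0.0617, with 0.00346 to 0.0617 among its alternatives). The number of called genes was 2 without naive replicate 1, 3 without naive replicate 2, treated replicate 2 or treated replicate 3, and 8 without EAE replicate 2, a library outside this comparison that adds to the common estimate of spread. Over all 13018 tested genes, 1332 rose and 600 fell with all libraries. These numbers were 915 and 321 without naive replicate 1, and 1590 and 851 without naive replicate 2. They were 955 and 399 without treated replicate 2, and 1147 and 547 without treated replicate 3. Without EAE replicate 2, 1834 rose and 1127 fell. The calls of Lcn2 and Cxcr2 held in each alternative run. With scaling to the upper quartile, or with no scaling, 46.7% and 45.6% of the genes called over the whole table were higher, against 68.9% in the fit used here, and the median of all genes moved from 0.01 to -0.09 and -0.11. The 9 genes kept their signs in this comparison under both scalings, though not all of their calls.

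**Figure D2:**
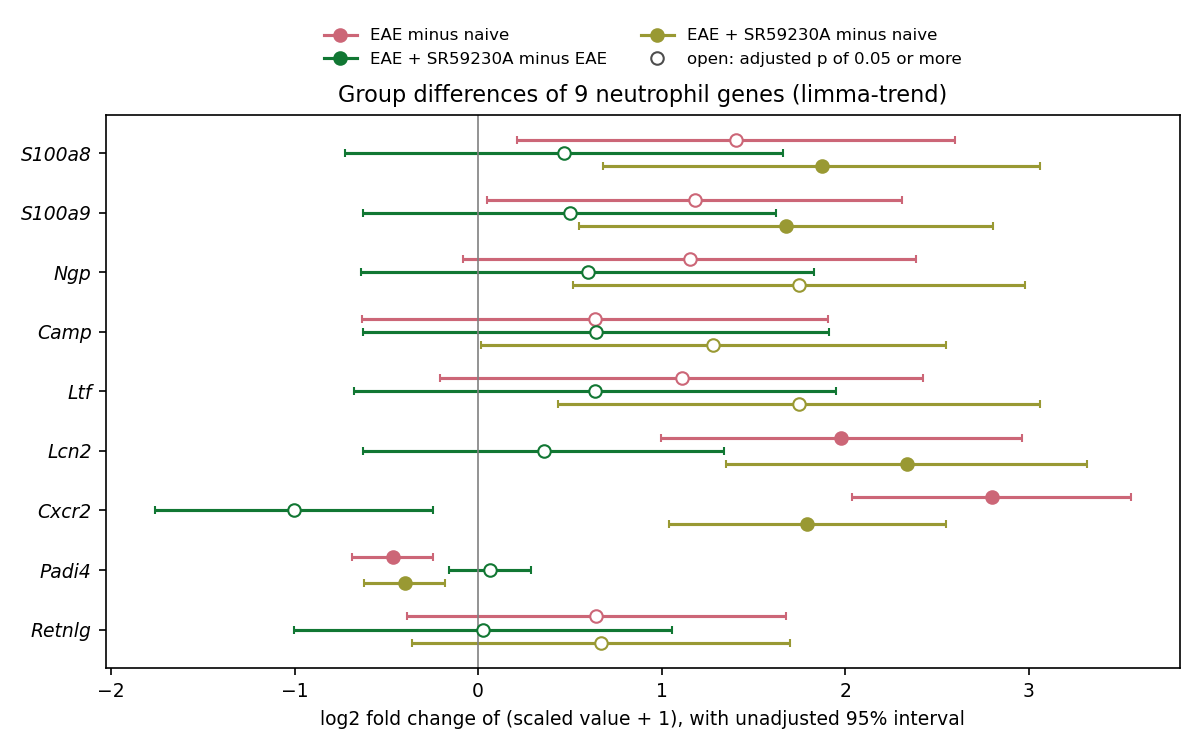
Log2 fold change of (scaled value + 1) with its unadjusted 95% interval (horizontal axis) for the 9 genes (vertical axis) in 3 comparisons of 3 against 3 libraries; filled points have a limma-trend adjusted p under 0.05. Cxcr2, Lcn2 and Padi4 are filled against naive mice in both immunized groups, and no point is filled for treated against EAE mice.

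Within each group the same mice were high and low for most of the 9 genes. In the naive group replicate 3 was highest for 8 of 9 and replicate 2 lowest for 9 of 9 genes. In the EAE group replicate 3 was highest for 9 and replicate 2 lowest for 7 of 9, and in the treated group replicate 3 was highest and replicate 1 lowest for all 9. Over all tested genes these shares were 37.6%, 38.9%, 36.9%, 33.6%, 38.4% and 42.9%. All these counts are of scaled values. In the EAE group replicate 3 had the smallest scale factor, 0.9595 against 1.107 in replicate 1. The treated replicate 3 also had the smallest of its group, 0.9005 against 0.9813 in replicate 2. Before scaling replicate 3 was not the highest for Camp or Padi4 in either group. Replicate 1 was then not the lowest treated library for Padi4, and replicate 3 was its highest naive library. On scaled values the full order of the mice in all 3 groups was that of S100a8 for 7 of the 9 genes (S100a8 itself, S100a9, Ngp, Camp, Ltf, Lcn2 and Retnlg), against 2.83% of all tested genes. For Camp it rests on the scaling. Its scaled values were 389 and 418 in EAE replicates 1 and 3, and 490.2 and 496 in treated replicates 2 and 3. Both pairs had the reverse order before scaling. The share of all tested genes was not computed with other scalings. Cxcr2 had another order in the EAE group alone, and Padi4 in the naive and EAE groups. The treated order of Cxcr2 rests on a near tie of replicates 1 and 2, at 23.39 and 23.44. Further near ties were naive replicates 1 and 3 for Cxcr2, at 8.11 and 8.45, and treated replicates 1 and 2 for Padi4, at 607.2 and 609.4. The median log2 range within a group was 1.33, 2.24 and 1.13 for the 9 genes in naive, EAE and treated mice, against 0.24, 0.31 and 0.21 over all tested genes. The order was noticed in these values, it is a description and no test was made. Since the values lack 2 directions of variation that lay almost wholly within the groups, the orders of different genes are not independent.

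**Figure D3:**
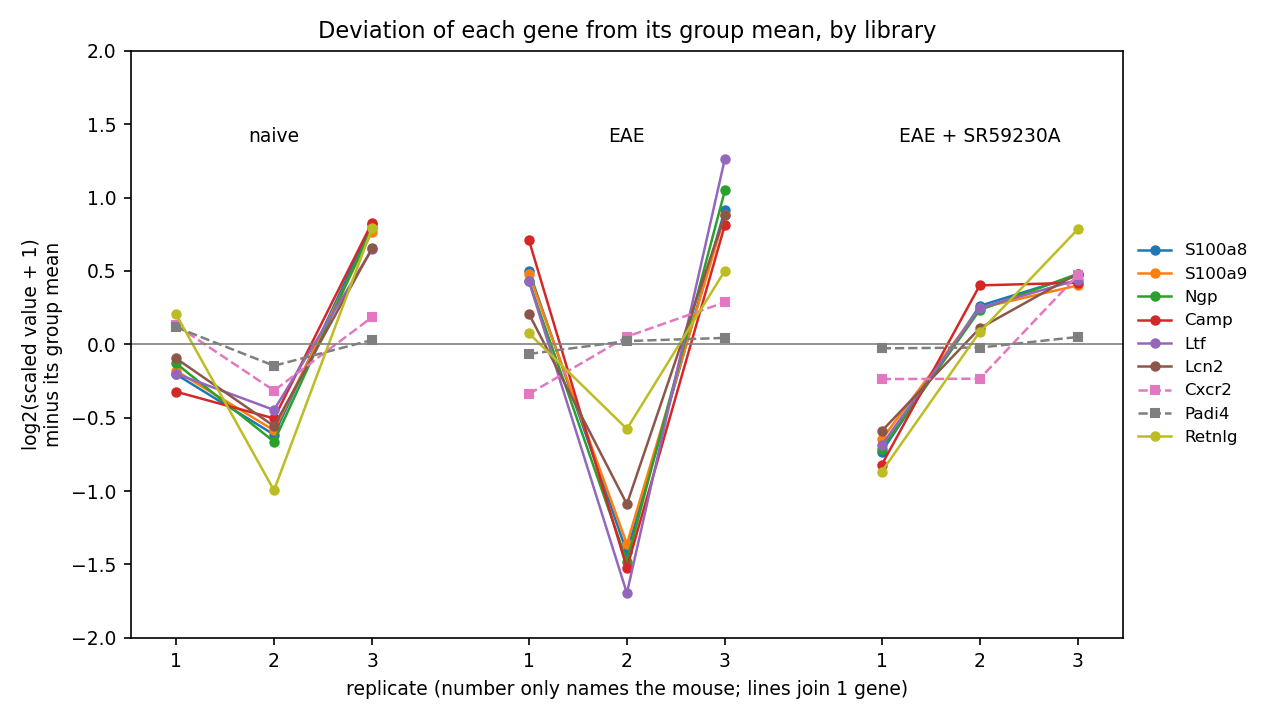
Log2(scaled value + 1) of each gene minus its group mean (vertical axis) in the 3 libraries of each group (horizontal axis; replicate numbers name mice and have no order, lines join the values of 1 gene). The 7 solid lines run together, with EAE replicate 2 lowest, while Cxcr2 and Padi4 (dashed) stay closer to 0 in that library.

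Genes with the most similar profile over the 9 libraries were sought among 8689 other tested genes with a mean of at least 100. Closest to S100a8 were Cd177, a surface protein gene of neutrophils (Pearson's r = 0.992), Wfdc21, a secreted protein gene (0.990), Eml4, a microtubule-binding protein gene (0.977), Tmc4 (0.973) and Gm13199 (0.953), and 0.552% of the genes reached 0.9. Closest to Camp were Eml4 (0.980), Commd4 (0.963), C2cd2 (0.954), Dhx58 (0.947) and Cd177 (0.944), with 0.253% of the genes at 0.9 or more. Closest to Cxcr2 were Tbccd1 (0.995), Vrk1 (0.994), Tbc1d9b (0.992), Pstk (0.991) and Babam1 (0.990), and 4.49% of the genes reached 0.9. The libraries share group and scaling, these were the highest of many values, and no p is given. Cd177 and Wfdc21 moved over a wide range, with Cd177 at 32.4, 24.6 and 60.1 in naive, 134, 31.7 and 236 in EAE and 78.3, 149 and 181 in treated libraries. Eml4 had a like profile over a small range, from 1684 in EAE replicate 2 to 1930.3 in EAE replicate 3.

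Other genes of neutrophil granules were read from lists chosen for this tissue. Over all tested genes 9.13% rose and 5.1% fell in EAE against naive mice, and EAE replicate 2 was the lowest of its group for 33.6%. Of 12 tested specific and gelatinase granule genes, 2 rose in EAE against naive mice and none fell: Hp, the haptoglobin gene, by 3.89 ± 0.16 and Itgam, the CD11b gene, by 0.99 ± 0.15 (limma-trend adjusted p = 1.14e-07 and 0.00189). The list's median log2 fold change was 0.56. Cd177 (1.45 ± 0.61) and Slpi, a protease inhibitor gene (1.16 ± 0.96), did not pass, and Cd177 passed without EAE replicate 2 (2.27 ± 0.44). EAE replicate 2 was the lowest EAE library for 8 of the 12, among them Mmp8 and Mmp9, which encode neutrophil collagenase and gelatinase. Of 7 tested cytosolic and secreted neutrophil genes, 3 rose and none fell (median 1.61): Ifitm6 by 2.26 ± 0.42, Wfdc17 by 1.61 ± 0.12 and Anxa1, the annexin A1 gene, by 0.76 ± 0.12. Lrg1 (2.05 ± 0.73) and Wfdc21 (1.75 ± 0.58) did not pass, although Wfdc21 did so without EAE replicate 2 (2.47 ± 0.47), and without naive replicate 3 both passed, Lrg1 at 2.73 ± 0.64 and Wfdc21 at 2.14 ± 0.58. Both also passed without the missing directions as terms of the fit. Lrg1 was below 10 in all naive libraries and passed the filter through the immunized ones alone, and its value ran from 0.81 with a pseudocount of 10 to 3.19 with one of 0.1.

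Of 14 tested receptor genes of the myeloid line, 8 rose in EAE against naive mice and none fell, with a median of 0.89. The shares over all tested genes were 9.13% and 5.1%. The chemokine receptor gene Ccr1 rose by 2.37 ± 0.30, the Fc receptor gene Fcgr3 by 1.71 ± 0.26, the lectin receptor gene Clec4d by 1.62 ± 0.24 and the activating receptor gene Trem1 by 2.16 ± 0.49. The call of Trem1 was lost without EAE replicate 2 (limma-trend adjusted p = 0.0590, with 0.00389 to 0.0590 among its alternatives). The formyl peptide receptor gene Fpr1 (1.24 ± 1.05) and the paired receptor gene Pilra (0.98 ± 0.68) did not pass, though Pilra did so without EAE replicate 2 (1.79 ± 0.51). Ly6g, the surface marker that defines mature neutrophils, stayed low in every library, at 9.12, 8.53 and 20.7 in naive, 14.4, 1.02 and 20.8 in EAE and 15.3, 27.5 and 17.8 in treated libraries. The lowest Ly6g value was that of EAE replicate 2.

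Azurophil granule genes come before the specific granules in the maturation sequence. The list of 12 read here also holds Ms4a3 and Serpinb1a, which do not encode granule proteins. EAE replicate 2 was the lowest EAE library for 2 of the 12, Fcnb and Serpinb1a, against 33.6% of all tested genes. Of the 12 genes 8 rose and none fell in EAE against naive mice, with a median of 1.22, against 9.13% and 5.1% of all tested genes. The largest changes in the list were those of Ms4a3, Elane, Ctsg and Prtn3, at 5.31 ± 0.15, 4.93 ± 0.25, 3.53 ± 0.18 and 2.30 ± 0.12. Elane, which encodes neutrophil elastase, was 985, 1734 and 1156 in the EAE libraries, highest in replicate 2. Fcnb, the ficolin B gene, did not pass (1.14 ± 0.80) and was the gene of this list with the S100a8 order, at 94.8, 18.4 and 103 in EAE libraries. Srgn, the granule proteoglycan gene, did not pass (0.40 ± 0.14) but did so without naive replicate 2 or EAE replicate 1 (0.50 ± 0.13 each). It also passed without the missing directions as terms of the fit (0.40 ± 0.11). The difference between EAE replicate 2 and the mean of the other EAE libraries had a median of -2.04 on the log2 scale over the 9 genes described here, 0.21 over the azurophil list and 0.0034 over all tested genes.

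**Figure D4:**
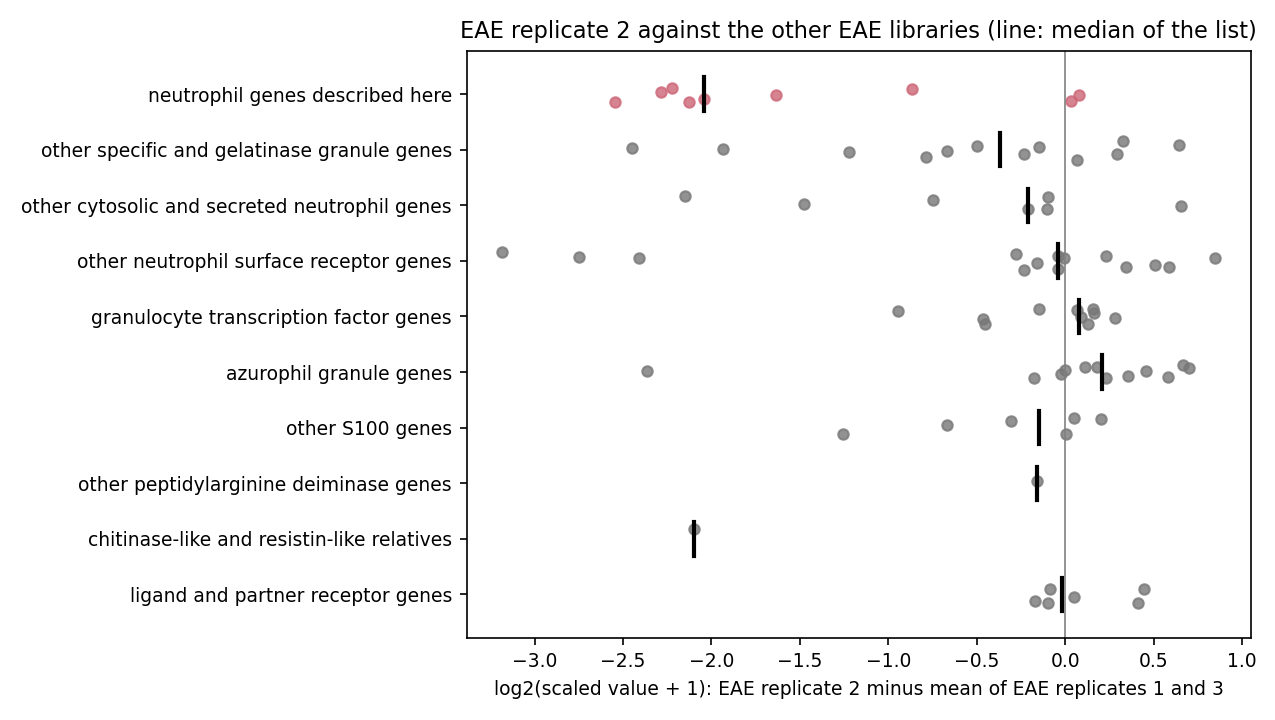
Log2(scaled value + 1) in EAE replicate 2 minus the mean of EAE replicates 1 and 3 (horizontal axis) for the tested genes of 10 lists (vertical axis), with a line at each list's median. Of the 9 genes described here 7 lie below 0, with a median of -2.04, and the azurophil list has a median of 0.21.

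Of 10 transcription factor genes of the granulocyte line, 5 rose in EAE against naive mice and none fell (median 0.46), against 9.13% and 5.1% of all tested genes. Cebpe, whose product drives the specific granule genes, was 1.01, 5.69 and 2.82 in naive, 27.1, 10.2 and 15.6 in EAE and 7.12, 13.2 and 9.99 in treated libraries. It passed the filter through immunized libraries alone and rose by 2.24 ± 0.60 on the log2(value + 1) scale, or 1.03 with a pseudocount of 10, and the call was lost without naive replicate 1 or EAE replicate 1 (limma-trend adjusted p = 0.0666 and 0.0611, with 0.00780 to 0.0666 among its alternatives). EAE replicate 2 had the lowest Cebpe value of the EAE group. Cebpd rose by 1.71 ± 0.19, Irf8, which favours the monocyte fate, by 1.15 ± 0.16 and Cebpa by 0.98 ± 0.11. Cebpb (0.60 ± 0.20) and Gfi1 (0.31 ± 0.10) did not pass, though Cebpb passed without naive replicate 2 or EAE replicate 1 and Gfi1 without naive replicate 3, EAE replicate 2 or 3, or treated replicate 1 or 3. Both also passed without the missing directions as terms of the fit, and Gfi1 in a fit on the 2 groups alone.

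Relatives and partners of the 9 genes were read in the same way. None of 6 tested other S100 genes passed in EAE against naive mice by limma-trend (median 0.02), with S100a16 at -0.73 ± 0.54 and S100a1 at 0.33 ± 0.13, the latter called without EAE replicate 3 (0.40 ± 0.11). S100a1 was also called without the missing directions as terms of the fit. Padi2, another citrullinating enzyme gene, rose by 0.52 ± 0.13 while Padi4 fell, and its call was lost without naive replicate 1 and with no scaling (limma-trend adjusted p = 0.0654 and 0.117, with 0.00620 to 0.117 among its alternatives). Chil1, the 1 tested chitinase- or resistin-like relative, had 0.89 ± 0.57 and was called without EAE replicate 2 (1.60 ± 0.37). Of 6 tested ligand and partner receptor genes 1 rose and 1 fell (median 0.08), against 9.13% and 5.1% of all tested genes. Cd14, a co-receptor of TLR4, to which calprotectin binds, rose by 3.16 ± 0.30. Slc22a17, which encodes a receptor for lipocalin 2, fell by 0.61 ± 0.14. Cxcl2, a ligand of CXCR2, had 0.97 ± 0.41 and passed without naive replicate 2 (1.50 ± 0.29), and Ppbp, a platelet chemokine gene, had -1.23 ± 0.65. The 1 gene over the whole table that passed in treated against EAE mice belongs to none of these lists.

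The list of 15 mature neutrophil markers held 13 genes with a value, the 9 genes themselves among them, and its sum ran from 4408 to 8548 in naive, 5384 to 18785 in EAE and 9625 to 18938 in treated libraries, lowest in EAE for replicate 2. The sum of 5 monocyte markers of 6 listed was 578 to 802 in naive, 4141 to 5046 in EAE and 4010 to 4755 in treated libraries, and was highest in EAE replicate 2. The markers did not share that peak. F13a1 was 1223, 2355 and 1820 in the EAE libraries, and Fn1, a low gene, was also highest in replicate 2. Ms4a6c was between the others there. Ccr2 (1145, 1088 and 1283) and Csf1r (407, 323 and 328) were lowest in replicate 2. Macrophage markers (5 of 7) summed to between 22.9 and 166, erythroid markers (4 of 8) to between 58.4 and 192 and T cell markers (3 of 7) to between 139 and 218, and none of these 3 sums had the S100a8 order in the EAE group. In the naive group the monocyte, macrophage, T cell and B cell sums did have that order, and the T cell sum had it in the treated group too. B cell (4 of 8), platelet (5 of 5), eosinophil (3 of 5) and mast cell markers (5 of 5) summed to between 750.03 and 934, 922 and 1381, 159 and 1073, and 173 and 476. C1qb and Cd8a were the markers of other cell types that are listed at 0 in some EAE libraries. The part of these cell types in the results was not tested.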

How the data were processed

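RNA was measured in LSK bone marrow cells of 9 mice, 3 per group. The RNeasy micro kit was used for RNA, per the labels' protocols. Groups come from the labels, and replicate numbers follow deposition order. The deposited values, made by the authors in a way the labels do not describe, are a score in whole numbers and no read counts. In a principal component analysis of ln(value + 1), limited to genes averaging 500 or more, components 1 to 6 took 2.75% to 60.5% of the variance each, while components 7 and 8 took 7.65e-05% and 6.77e-05%. Aligner, counting tool and genome build: not given in the sources used here. The submitters' processing notes name DESeq2 without version or role. Depth is unknown, and the 3 libraries per group limit the precision.

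Libraries were brought to 1 scale with median-of-ratios factors between 0.9005 and 1.107. Genes entered the test if 3 or more libraries had a deposited value of 10 or above. Group differences in log2(value + 1) come from 2-sided limma-trend tests (limma 3.58.1, R 4.3.3) over all 9 libraries with 3 group coefficients and the 2 missing directions as covariates (4 residual degrees of freedom, prior 7.52), with Benjamini-Hochberg adjustment over all 13018 tested genes and a threshold of 0.05. The design planned a count test for read counts and this test otherwise. The fit was tested on simulated data.

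All 9 genes with values were named. From each context list up to 4 genes past the threshold in EAE against naive mice with the largest fold changes were named, and up to 2 of the largest that did not pass, besides single genes chosen after their values were seen (Ly6g, Mmp8, Mmp9, Serpinb1a, C1qb and Cd8a). The members and lists were chosen with earlier results of these data known. Alternatives were other scalings, filters, pseudocounts and terms, a fit on 2 groups alone and leaving out each library. Promoter sequences are from RefSeq (GRCm38.p6), matched by symbol.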

Additional observations from a re-analysis of the deposited data

How the results depend on the processing

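No paired analysis was possible because the numbers of the replicates only follow accession order, and the labels pair no mice. Over 27 fold changes of the 9 genes and 16 alternatives each (432 values), 390 kept their direction and side of the threshold, 14 lost the call, 17 gained it and 11 changed sign. All 11 were in SR59230A-treated EAE against EAE, where no gene of the 9 was called in any alternative: -0.022 (Padi4) and -0.060 (Retnlg) with no scaling, -0.25 (S100a8), -0.19 (S100a9), -0.15 (Ngp), -0.13 (Camp), -0.22 (Ltf), -0.20 (Lcn2) and -0.27 (Retnlg) without EAE replicate 2, and for Retnlg -0.018 and -0.37 without treated replicates 2 and 3. As single libraries were left out, these values reached 0.92 (S100a8), 0.94 (S100a9), 1.12 (Ngp), 1.05 (Camp), 1.27 (Ltf), 0.79 (Lcn2) and 0.46 (Retnlg) at their highest. The number of the 9 genes called in EAE against naive mice ran from 2 to 7 as single libraries were left out. In treated against naive mice it ran from 2 to 8, was 3 with upper-quartile scaling and 8 with the 2 groups alone. Over the whole table, calls in EAE against naive mice were 1059 with no scaling, 3485 without the missing directions as terms, which frees residual degrees of freedom, and 1238 to 2620 without single libraries, against 1853. Calls in treated against naive mice were 1073, 3920, 4480 with the 2 groups alone and 1236 to 3331, against 1932. With the 2 groups alone 2 genes were called in treated against EAE mice, against 1. The cause of the other moves was not tested. The unknown depth and 3 mice per group limit all of these.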

Other observations

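The ratio of Lcn2 to S100a9 differed between naive and immunized libraries. Its log2 value was -2.90, -2.95 and -3.09 in naive, -2.45, -1.91 and -2.17 in EAE and -2.26, -2.45 and -2.23 in treated libraries. Every immunized library was above every naive library. The ratio of Lcn2 to Ltf gave the same order of groups, at -0.52, -0.74 and -0.62 in naive, 0.02, 0.85 and -0.14 in EAE and 0.06, -0.18 and 0.01 in treated libraries. In EAE replicate 2, where the granule genes were low, both ratios were at their highest. These ratios were chosen after their values were seen, and no test was made.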
